A study of Homo sapiens with 6 samples.

Results

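MicroRNA host transcripts are the long RNAs from which microRNAs are cut, and they were read here in SK-Hep1 cells given an oligonucleotide against miR-21. The members are all probe sets whose annotation holds 1 of 8 named hosts, alone or among several entries, with no filter on expression. This gave 11 of the 54613 probe sets other than controls, for 7 of the 8 hosts and of 21357 annotated genes. MIR222HG, the host of miR-221 and miR-222, has no probe set in the annotation used here. MIR146A, MIR17HG, MIR100HG and MIR210HG have 2 probe sets each, and MIR22HG, MIR155HG and MIR31HG have 1 each. The annotation lists MIR146A by the microRNA's own symbol, but what is read is a long RNA of the locus, not the mature form. Of the 11, 3 list several entries, which are a host and microRNAs it carries (MIR22HG with MIR22, MIR155HG with MIR155, and MIR17HG with its 6 microRNAs).

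SK-Hep1 is an established human cell line, with 3 arrays for mock cells and 3 for cells that received anti-miR-21 at 20 nM. Both groups were harvested 16 hours later, and arrays are named by group and replicate number, as in mock 1. The labels describe the mock cells as transfected without the oligonucleotide, while the design text calls the mock compound PBS. No group here received a control oligonucleotide, so an effect of anti-miR-21 cannot be told apart from one of any transfected oligonucleotide. The replicates are called biological, with no statement that the cultures were separate in time, so the spread between arrays may be partly technical.

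A microRNA gene is first transcribed as a long primary transcript. In the nucleus the enzyme DROSHA cuts a hairpin out of it, DICER1 trims the hairpin in the cytoplasm, and an Argonaute protein carries the mature strand to messenger RNAs that pair with its seed, bases 2 to 8. The array reads what remains of the long RNA, so a host level need not follow the level of its microRNA. The molecule label is total RNA, while the extraction text cites an Argonaute immunoprecipitation procedure, so the fraction read is uncertain. Levels of hosts and other genes are described here on the reading that it was total RNA. Several hosts are known targets of signalling pathways. NF-κB, a family of transcription factors activated by inflammatory signals, drives MIR146A and MIR155HG, the factor MYC drives MIR17HG, and hypoxia drives MIR210HG. MiR-146a in turn represses the adaptors IRAK1 and TRAF6, which lie upstream of NF-κB.

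The mature microRNAs of the 4 hosts detected here are shown with miR-21-5p, the target of the oligonucleotide, because the seeds set which messenger RNAs each could repress. Sequences and positions are from RefSeq on GRCh38.p14, read 5′ to 3′, with the seed in capitals.
miR-21-5p (chr17:59841273-59841294, plus strand): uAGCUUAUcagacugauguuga
miR-146a-5p (chr5:160485372-160485393, plus strand): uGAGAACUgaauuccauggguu
miR-17-5p (chr13:91350618-91350640, plus strand): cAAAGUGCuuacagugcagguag
miR-20a-5p (chr13:91351072-91351094, plus strand): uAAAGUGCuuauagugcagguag
miR-18a-5p (chr13:91350756-91350778, plus strand): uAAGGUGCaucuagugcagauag
miR-19a-3p (chr13:91350939-91350961, plus strand): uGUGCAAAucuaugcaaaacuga
miR-19b-3p (chr13:91351245-91351267, plus strand): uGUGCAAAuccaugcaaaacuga
miR-92a-3p (chr13:91351361-91351382, plus strand): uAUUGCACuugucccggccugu
miR-22-3p (chr17:1713914-1713935, minus strand): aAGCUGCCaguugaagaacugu
miR-100-5p (chr11:122152275-122152296, minus strand): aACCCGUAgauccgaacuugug
let-7a-5p (chr11:122146568-122146589, minus strand): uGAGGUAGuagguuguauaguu
miR-125b-5p (chr11:122099809-122099830, minus strand): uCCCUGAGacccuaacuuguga
The 6 microRNAs of MIR17HG have 4 different seeds, miR-17-5p sharing its seed with miR-20a-5p and miR-19a-3p with miR-19b-3p. The 3 microRNAs of MIR100HG have 3 different seeds. Over all 8 hosts 16 microRNAs were matched with 13 different seeds, and 0 of the 16 had the seed of miR-21-5p.

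All values are log2 expression as the authors deposited it, made with GCRMA, and a difference is the anti-miR-21 mean minus the mock mean with the standard error (SE) of a limma fit over all kept probe sets. A probe set was kept where its mean over the 6 arrays was at least 4, which held for 22408. Of the 11 member probe sets 4 were kept, 1 each for MIR146A, MIR17HG, MIR100HG and MIR22HG, and each of these also had a mock mean above 4. The hosts were chosen with this contrast known, so their differences are descriptions and carry no p.

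**Figure D1:**
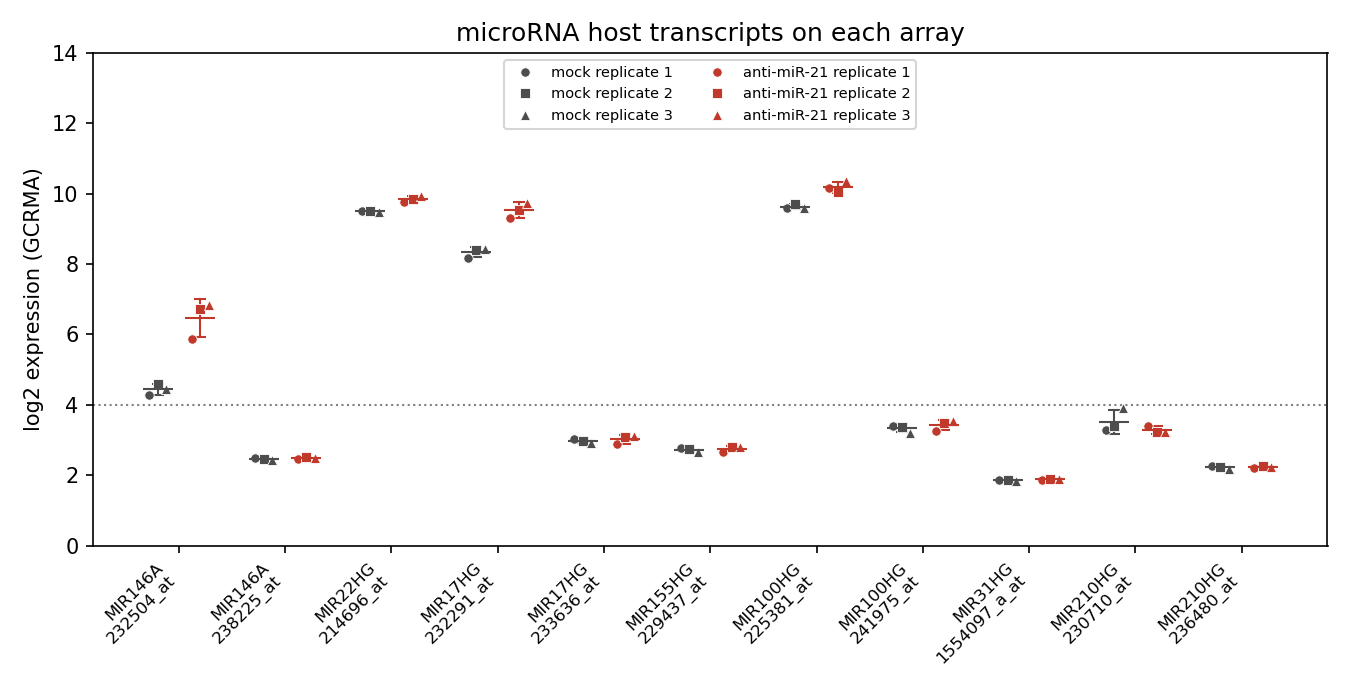
Log2 expression (GCRMA) of the 11 member probe sets on each array, mock in grey and anti-miR-21 in red, symbols marking the replicate number, with the group mean and SD (n = 3) as a bar; the dotted line is the filter at 4. The 4 kept probe sets are higher on all anti-miR-21 arrays than on any mock array, and the 7 others overlap between groups.

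MIR146A carries miR-146a. Its probe set 232504_at read 4.28, 4.59 and 4.46 on the mock arrays and 5.86, 6.73 and 6.84 on the anti-miR-21 arrays. The groups were separated by 1.26 between the highest mock and the lowest anti-miR-21 array, and the anti-miR-21 arrays spread wider than the mock arrays, with replicate 1 the lowest. The means were 4.44 ± 0.156 and 6.48 ± 0.54 (SD, n = 3), a difference of 2.03 ± 0.253 (SE), or 4.09-fold. Only 3 of the 22408 kept probe sets had a larger positive difference. The mock level lay close to the filter of 4. A second MIR146A probe set, 238225_at, read 2.42 to 2.49 in mock and 2.45 to 2.51 with anti-miR-21, below the filter in both groups.

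MIR17HG is the host of the cluster from miR-17 to miR-92a, microRNAs known to promote cell growth and survival. Probe set 232291_at read 8.17, 8.40 and 8.43 in mock and 9.30, 9.54 and 9.75 with anti-miR-21. Every anti-miR-21 array lay at least 0.87 above every mock array, and replicate 1 was again the lowest of its group. The difference was 1.19 ± 0.125 (SE), or 2.29-fold, and 30 kept probe sets had a larger one. The second MIR17HG probe set, 233636_at, lay at 2.97 ± 0.0602 in mock and 3.02 ± 0.124 with anti-miR-21 (SD, n = 3), below the filter.

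MIR100HG is the host of miR-100, let-7a-2 and miR-125b-1. Probe set 225381_at read 9.59, 9.72 and 9.60 in mock and 10.15, 10.04 and 10.36 with anti-miR-21. The groups did not overlap, and here replicate 2 was the lowest anti-miR-21 array. The difference was 0.55 ± 0.0905 (SE), or 1.46-fold. Probe set 241975_at of the same gene was below the filter at 3.33 ± 0.107 and 3.43 ± 0.146 (SD, n = 3).

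MIR22HG is the host of miR-22. Probe set 214696_at read 9.50, 9.50 and 9.49 in mock, a range of 0.01, and 9.77, 9.85 and 9.94 with anti-miR-21. All anti-miR-21 arrays were at least 0.27 above all mock arrays. The difference was the smallest of the 4, 0.36 ± 0.0576 (SE), or 1.28-fold, and 756 kept probe sets had a larger one.

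**Figure D2:**
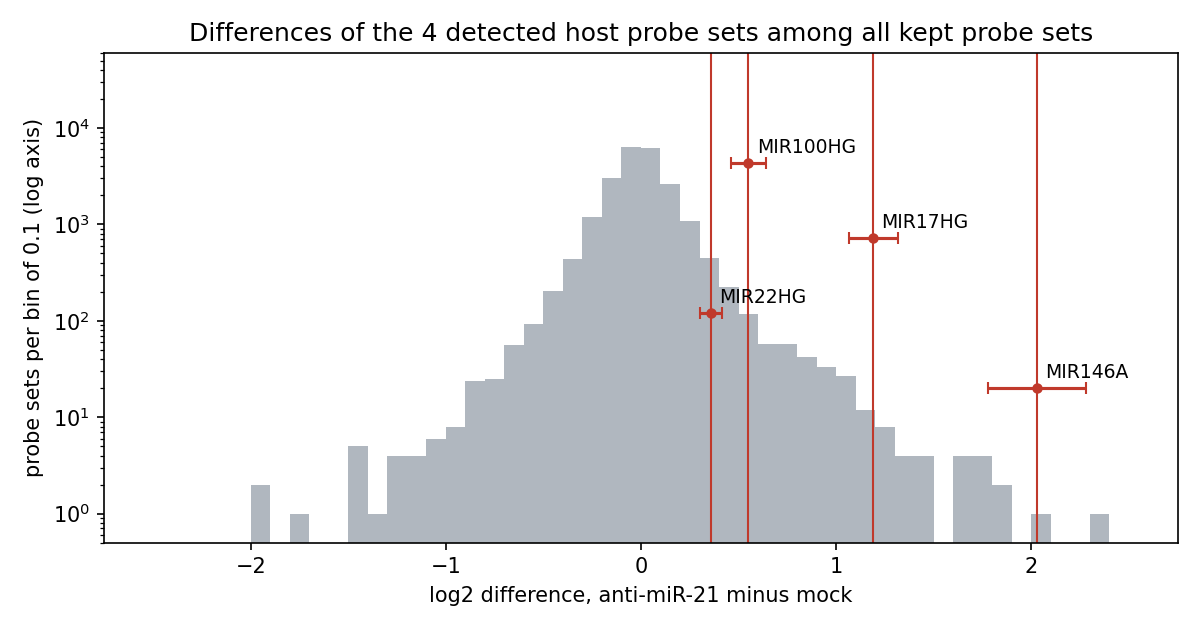
Number of kept probe sets (log axis) in bins of 0.1 of the log2 difference, anti-miR-21 minus mock, with the 4 kept host probe sets marked by red lines and points with SE bars; the height of a point has no meaning. MIR146A at 2.03 and MIR17HG at 1.19 lie in the sparse right tail, and MIR100HG at 0.55 and MIR22HG at 0.36 on its shoulder. The bins run from -2.5 to 2.5, so not all of the 3 probe sets with a larger difference than MIR146A are drawn.

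All 4 kept host probe sets passed an adjusted p of 0.05 upwards in the fit, as did 1.1% of all kept probe sets, and 0 passed downwards (1.07% of all). In all 4 every anti-miR-21 array lay above every mock array, which held for 11.4% of kept probe sets. Their median difference was 0.87, against -0.003 over all kept probe sets. Since the choice used this contrast, nothing is read from these shares. Leaving out 1 array lowered the number past the threshold to 0 (anti-miR-21 2), 1 (anti-miR-21 3, mock 2 or mock 3), 2 (mock 1) or 3 (anti-miR-21 1). MIR17HG passed in 5 of these fits, MIR146A in 2, MIR22HG in 1 and MIR100HG in 0. The differences themselves stayed positive and between 1.85 and 2.34 for MIR146A, 1.08 and 1.31 for MIR17HG, 0.46 and 0.62 for MIR100HG and 0.32 and 0.40 for MIR22HG over every alternative that gave a value.

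The other 7 member probe sets were below the filter, at single-array values of 1.82 to 3.91. MIR155HG, the host of miR-155, a microRNA of activated immune cells, read 2.65 to 2.77 in mock and 2.66 to 2.81 with anti-miR-21 on 229437_at. MIR31HG, the host of miR-31, read 1.82 to 1.87 and 1.87 to 1.89 on 1554097_a_at. At such levels the array does not tell a low level from none, so a difference in these hosts was not measurable. MIR210HG, the host of the hypoxia-induced miR-210, had the widest spread of the 7. Its probe set 230710_at read 3.27, 3.39 and 3.91 in mock and 3.40, 3.23 and 3.22 with anti-miR-21, so a single mock array was high and the groups overlapped (difference -0.24 ± 0.167 SE). The second MIR210HG probe set, 236480_at, stayed between 2.18 and 2.25. Apart from 230710_at, the dim probe sets had differences of 0.01 to 0.10. Mock replicate 3 was the lowest array in 5 of the 7, and it also had the lowest median over all probe sets, 3.02 against 3.03 to 3.16 on the other arrays.

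The 4 kept hosts differed in how the anti-miR-21 arrays were ordered. Relative to the mock mean, MIR146A stood at 1.41, 2.29 and 2.40 in replicates 1, 2 and 3, MIR17HG at 0.96, 1.20 and 1.41, MIR22HG at 0.28, 0.36 and 0.44, and MIR100HG at 0.51, 0.41 and 0.73. Replicate 3 was the highest in all 4, and replicate 1 the lowest in all but MIR100HG. Replicate 1 was also the lowest anti-miR-21 array for all 7 NF-κB response genes that rose, described further on. The median over the 21 kept genes of that list stood at 0.275, 0.282 and 0.261. A low replicate 1 was not particular to the hosts and these genes. GCNA, VMP1 and DDIT3, named below, were also lowest in it, while ANKRD46 was highest in it. Over all probe sets, replicate 1 had the lowest median of the anti-miR-21 arrays, 3.03 against 3.15 and 3.16. These medians lie below the filter of 4 and so describe dim probe sets. The upper quartiles were close, at 8.23, 8.26 and 8.27 in anti-miR-21 replicates 1, 2 and 3.

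**Figure D3:**
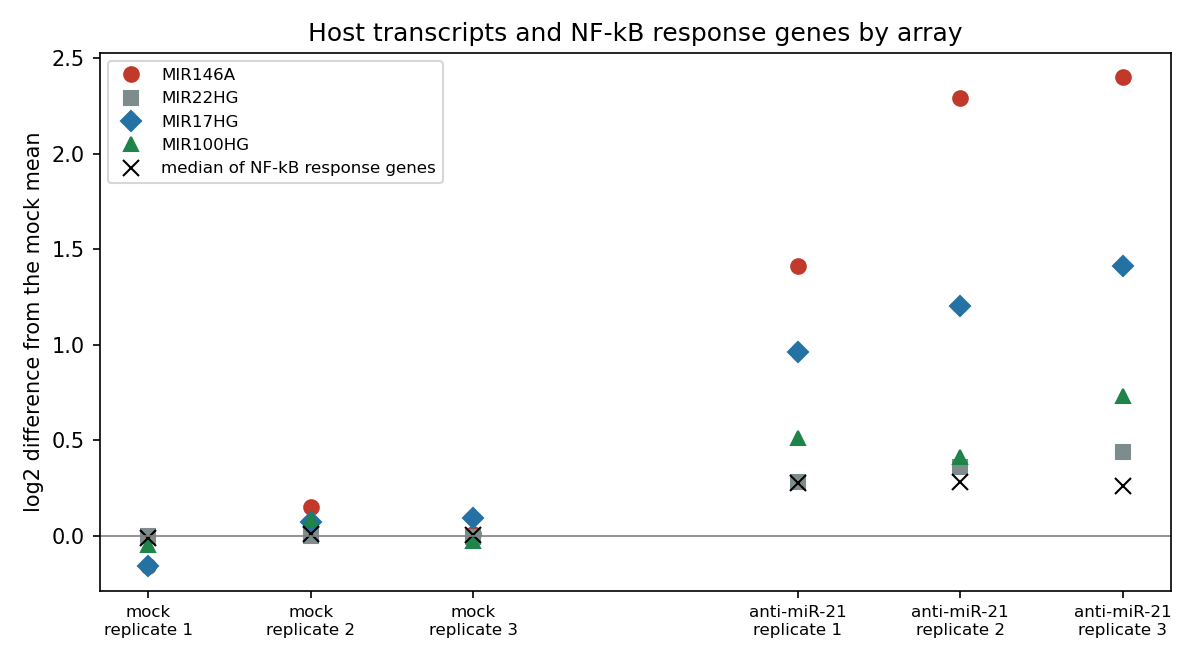
Log2 difference from the mock mean on each array for the 4 kept host probe sets (coloured symbols) and for the median of 21 NF-κB response genes (crosses). The anti-miR-21 arrays lie above the mock arrays for each host, MIR146A from 1.41 to 2.40. The NF-κB median lies between 0.261 and 0.282 on them and includes 14 genes that did not pass, while the 7 that rose were all lowest in anti-miR-21 1. That array also had the lowest median of its group over all probe sets, a value below the filter of 4, while the upper quartiles were close.

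The genes whose 6-array profile was most like that of MIR146A were found by the root mean square gap between log2 differences from the mock mean, among 10846 genes. They were GCNA (gap 0.294), ANKRD46 (0.384), VMP1 (0.515), NFKBIZ (0.682) and DDIT3 (0.703). GCNA also started near the filter, at 4.10 in mock, and went to 6.47. VMP1 is the protein-coding gene whose locus overlaps the primary transcript of miR-21 itself. It read 8.06, 8.33 and 8.80 in mock and 9.26, 9.95 and 10.07 with anti-miR-21, a difference of 1.36 ± 0.259 (SE) that missed the threshold (limma adjusted p = 0.0536, with 0.0287 to 0.188 over the alternatives, the lowest leaving out anti-miR-21 1). NFKBIZ, a nuclear regulator of NF-κB targets, and DDIT3, a stress-induced transcription factor, differed by 1.16 and 1.07. DDIT3 missed the threshold (limma adjusted p = 0.0718, with 0.00851 to 0.228 over the alternatives, the lowest leaving out anti-miR-21 1). A small gap reflects the size of the rise as well as the order of arrays. ANKRD46 read 10.28, 10.26 and 10.25 with anti-miR-21, without the order seen in MIR146A.

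RefSeq holds a transcript named MIR3142HG that spans the MIR146A hairpin and starts 17.1 kb before it. The window from 250 bases before to 50 bases after its start is shown because NF-κB is the known driver of this locus, with a κB motif in capitals (GGG, any 2 bases, then TTTCC).
MIR3142HG (GRCh38.p14, chr5:160468001-160468300, plus strand): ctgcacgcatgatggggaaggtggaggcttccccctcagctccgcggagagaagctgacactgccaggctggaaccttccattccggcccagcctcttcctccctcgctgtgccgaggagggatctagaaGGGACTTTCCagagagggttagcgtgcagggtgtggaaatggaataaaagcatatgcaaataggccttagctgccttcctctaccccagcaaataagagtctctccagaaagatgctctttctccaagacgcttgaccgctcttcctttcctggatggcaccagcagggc
The match lies at bases 131 to 140 of the window, with 110 bases between it and the start. This motif, on either strand, occurred in 671 of 35116 RefSeq promoter windows of this length (1.91%). Among the other hosts it was found in 1 of the 6 MIR100HG windows, on the reverse strand as GGAAAGCCCC. A second form (GGG, any 2 bases, then TTCCC), held by 2.17% of windows, matched MIR222HG. A looser form (GGG, any 3 bases, then TTCC), which covers the first, is held by 6.52% and matched MIR3142HG, MIR222HG and the same MIR100HG window. The loosest (GGG, any 5 bases, then CC), which covers all of these, is held by 58.7% of windows. The hypoxia motif ACGTG, held by 21.4% of windows, matched MIR210HG, MIR22HG, MIR155HG and 1 MIR100HG window, and the E-box CACGTG, held by 7.26%, matched none. A match describes these letters and does not show a bound site, and the array probes are not placed on this transcript by the files used here.

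Genes around the hosts were then tested in lists. A gene was represented by its brightest kept probe set that lists 1 gene, which gave 10848 genes, of which 2.13% passed (limma adjusted p under 0.05; 0.913% higher and 1.22% lower) with a median difference of -0.018. NF-κB response genes held the most calls. Of 27 listed, 21 were kept, 7 rose, 0 fell, and the median difference was 0.20. CXCL3, a chemokine, read 8.94, 8.82 and 8.85 in mock and 9.58, 9.89 and 9.88 with anti-miR-21, a difference of 0.91 ± 0.0934 (SE, limma adjusted p = 0.00936). The other members that rose were CXCL2 (1.01), CXCL1 (0.55), the cytokines IL6 (0.74) and IL1A (0.84), NFKBIZ (1.16) and CXCL8 (0.85), with limma adjusted p from 0.0184 to 0.0259. A related list was already known to move in these arrays, so this count is no independent support. With 1 array left out the count became 0 (mock 2), 1 (mock 3 or anti-miR-21 2), 2 (anti-miR-21 3), 4 (mock 1) or 8 (anti-miR-21 1).

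**Figure D4:**
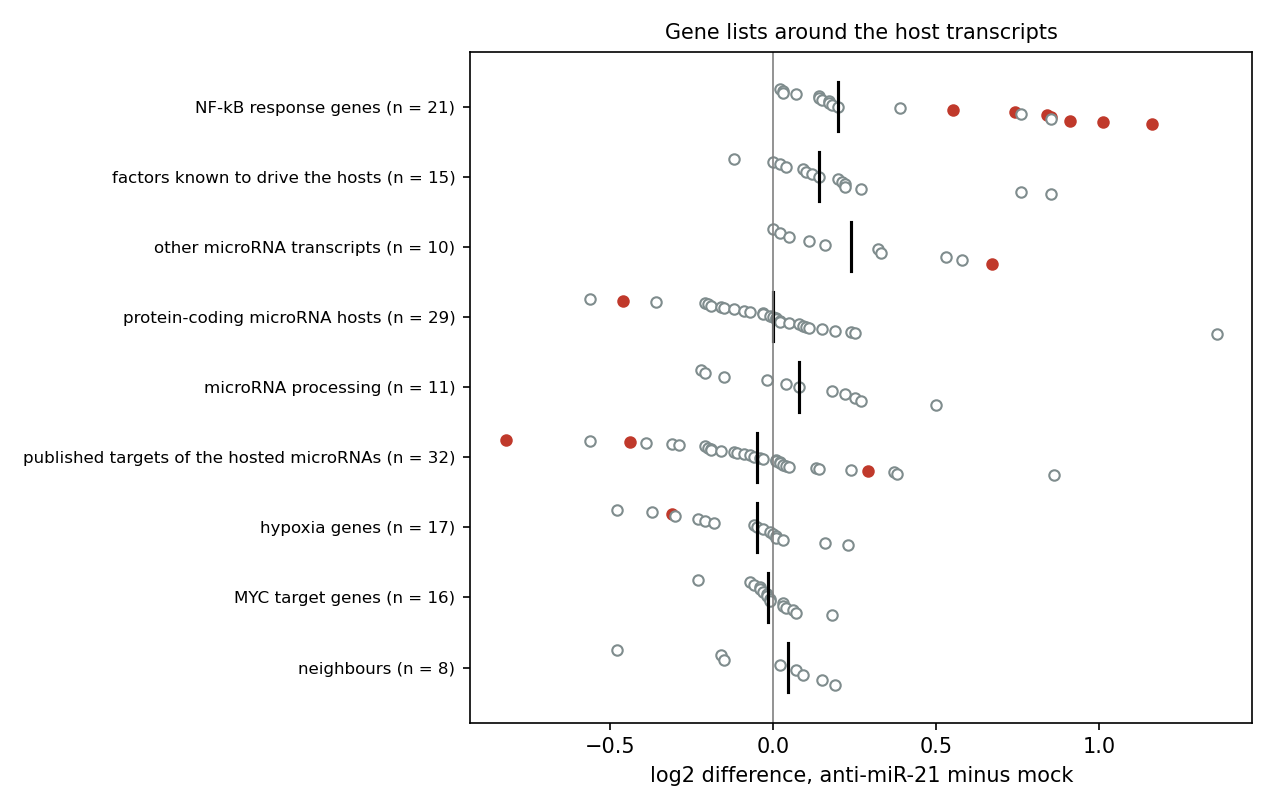
Log2 difference, anti-miR-21 minus mock, of every kept gene in 9 lists; filled red points passed limma's adjusted p of 0.05, open points did not, and the black bar is the list median. The NF-κB response genes hold 7 filled points, all to the right, and no other list holds more than 3.

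Of 16 transcription factors known to drive the hosts, 15 were kept and 0 passed in limma, with 7 at an unadjusted p under 0.05, as were 18.1% of all genes tested. Their median difference was 0.14. RELB, an NF-κB subunit of the non-canonical pathway, read 5.85, 5.65 and 5.93 in mock and 6.32, 6.68 and 6.96 with anti-miR-21. The groups did not overlap, and the difference of 0.85 ± 0.162 (SE) missed the threshold (limma adjusted p = 0.0546, with 0.0245 to 0.186 over the alternatives, the lowest leaving out anti-miR-21 1). NFKB2, its partner, differed by 0.76 ± 0.229 (limma adjusted p = 0.156). It differed by 0.48 with anti-miR-21 3 left out, the highest array at 8.64, and its other kept probe set differed by 0.31. JUN and JUNB, AP-1 subunits, differed by 0.22 and 0.27 (limma adjusted p = 0.115 and 0.168), JUN by 0.38 when its 4 kept probe sets were averaged. NFKB1, RELA, MYC and HIF1A were named after their values were seen. The NF-κB subunits NFKB1 and RELA differed by 0.00 and 0.09 (limma adjusted p = 0.999 and 0.644). MYC, the known driver of MIR17HG, differed by 0.21 ± 0.071 (limma adjusted p = 0.196), and of 16 kept MYC target genes 0 passed in limma and 1 had an unadjusted p under 0.05, with a median of -0.01. Those of smallest p were ODC1, an enzyme of polyamine synthesis (-0.23), the ribosome factor WDR43 (0.18), SRM, spermidine synthase (-0.06), and NCL, nucleolin (0.06), with limma adjusted p from 0.198 to 0.66. HIF1A, the oxygen-regulated factor upstream of MIR210HG, differed by 0.04 (limma adjusted p = 0.788). These differences are of messenger RNA, and the activity of the factors was not measured.

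Hypoxia genes were listed as companions of MIR210HG. Of 20 listed, 17 were kept, 6 had a positive difference (43.3% of all genes tested did), 0 rose and 1 fell. BNIP3, a mitophagy receptor, fell by 0.31 (13.36, 13.38 and 13.27 in mock, 13.08, 13.02 and 12.99 with anti-miR-21, limma adjusted p = 0.0457). The list median was -0.05, against -0.018 over all genes. Dropping any single array ended the BNIP3 call (limma adjusted p = 0.058 to 0.175). Its other kept probe set differed by -0.16 and the average of its probe sets by -0.23 (limma adjusted p = 0.222 and 0.0561). Leaving out mock 1 brought in P4HA1, a collagen prolyl hydroxylase (limma adjusted p = 0.046, with up to 0.323 over its alternatives). KDM3A, a histone demethylase, and P4HA1 differed by -0.21 and -0.30 (limma adjusted p = 0.0747 and 0.111), and PFKFB4, a glycolytic regulator, by -0.48 (0.119), with another of its kept probe sets at -0.09 and their average at -0.28.

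Other microRNA transcripts on the array were mostly dim. Of 48 named by single-gene probe sets, 10 were kept, 9 had a positive difference (against 43.3% of all genes tested), 1 rose and 0 fell, with a median of 0.24. MIRLET7D, a let-7 locus, read 6.91, 6.97 and 7.20 in mock and 7.62, 7.57 and 7.90 with anti-miR-21. The groups did not overlap, and the difference was 0.67 ± 0.114 (SE, limma adjusted p = 0.0391), a call that ended when any single array was dropped (limma adjusted p = 0.0633 to 0.148). MIR570HG differed by 0.53 ± 0.105 (limma adjusted p = 0.0608, with 0.0331 to 0.2 over the alternatives). MIR34A, a microRNA locus induced by p53, differed by 0.33 ± 0.0728 (limma adjusted p = 0.0808), and MIR1915HG by 0.32 (0.186), with another of its kept probe sets at 0.02.

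Protein-coding genes that carry microRNAs in their introns or next to them held 1 call. Of 34 listed, 29 were kept, 15 had a positive difference, 0 rose and 1 fell, with a median of 0.00. MEST, the host of miR-335, read 12.73, 12.87 and 12.90 in mock and 12.47, 12.30 and 12.34 with anti-miR-21, a fall by 0.46 (limma adjusted p = 0.0287). VMP1, described above, had the largest difference of the list, 1.36, and missed the threshold (limma adjusted p = 0.0536). TLN2, a talin gene that hosts miR-190a, differed by -0.56 (limma adjusted p = 0.0528), and CTDSPL, a phosphatase gene that hosts miR-26a-1, by 0.25 (0.113). Averaged over their kept probe sets these were -0.34 and 0.13, with another TLN2 probe set at -0.12 and the other CTDSPL probe sets at 0.09 and 0.05. Leaving out anti-miR-21 1 gave 4 calls, and leaving out mock 2, mock 3, anti-miR-21 2 or anti-miR-21 3 gave 0.

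The enzymes that cut microRNAs from these hosts were examined as a list. Of 13 genes of microRNA processing and Argonaute function, 11 were kept and 0 passed in limma, with 5 at an unadjusted p under 0.05 (18.1% of all genes) and a list median of 0.08. DROSHA differed by -0.21 ± 0.0503 (SE), DICER1 by 0.25 ± 0.0734, the Argonaute AGO4 by 0.50 ± 0.114 and the DICER1 partner TARBP2 by -0.22 ± 0.08, with limma adjusted p of 0.0976, 0.143, 0.0895 and 0.227. DICER1 passed with mock 1 left out (limma adjusted p = 0.0454, with up to 0.374 over the alternatives). The part of processing in the host levels was not tested.

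Published targets of the hosted microRNAs were read as genes, since no mature microRNA is on the array. Of 37 listed, 32 were kept, 1 rose, 2 fell and 29 did not pass, with a median of -0.05. BCL2L11, the pro-apoptotic protein BIM and a target of the MIR17HG cluster, read 7.61, 7.59 and 7.76 in mock and 7.03, 6.73 and 6.73 with anti-miR-21. The groups did not overlap, and the difference was -0.82 ± 0.0969 (SE, limma adjusted p = 0.0144), while the other 2 kept probe sets of the gene differed by -0.01 and -0.22 and did not pass. Averaged over the 3 probe sets the difference was -0.35. KIT, a receptor tyrosine kinase targeted by miR-221 and miR-222, fell by 0.44 (limma adjusted p = 0.0424). TGFBR2, a TGF-β receptor listed here for the MIR17HG cluster and also a published miR-21 target, rose by 0.29 (limma adjusted p = 0.0477). With 1 array left out, BCL2L11 passed without anti-miR-21 1 or mock 1 and KIT only without mock 1, and both missed the threshold without any other array (limma adjusted p = 0.0563 to 0.0667 for BCL2L11 and 0.0523 to 0.16 for KIT). TGFBR2 missed it with each array left out (0.0741 to 0.181), with medians centred (0.163) and with probe sets averaged (0.0546). DDIT4, a stress-response inhibitor of mTORC1, differed by 0.86 (0.251) and passed among these only without anti-miR-21 1.

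Grouped by microRNA and named after the values were seen, the targets of the 4 detected hosts did not share a direction. For miR-146a, 3 of 4 kept targets had a negative difference and 0 passed in limma. Of all genes tested, 43.3% had a positive difference. TRAF6 differed by -0.19 and the scaffold CARD10 by -0.21, both with groups that did not overlap (limma adjusted p = 0.197 and 0.154). All anti-miR-21 arrays lay below all mock arrays in 12.6% of kept probe sets. Another TRAF6 probe set differed by -0.13 and another CARD10 probe set by 0.00. IRAK1 differed by 0.02 (limma adjusted p = 0.909). For the MIR17HG cluster, 1 of 4 was negative, BCL2L11, and the cell cycle inhibitor CDKN1A differed by 0.02 (limma adjusted p = 0.912). For miR-22 and miR-100 the kept targets ranged from -0.20 to 0.13 and from -0.31 to 0.04. SOCS1, a cytokine signalling inhibitor and miR-155 target, and ITGA5, an integrin and miR-31 target, differed by -0.39 and -0.29 (limma adjusted p = 0.0888 and 0.0897). Another kept SOCS1 probe set differed by -0.01 and the average by -0.20. The hosts of both microRNAs were below the filter.

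**Figure D5:**
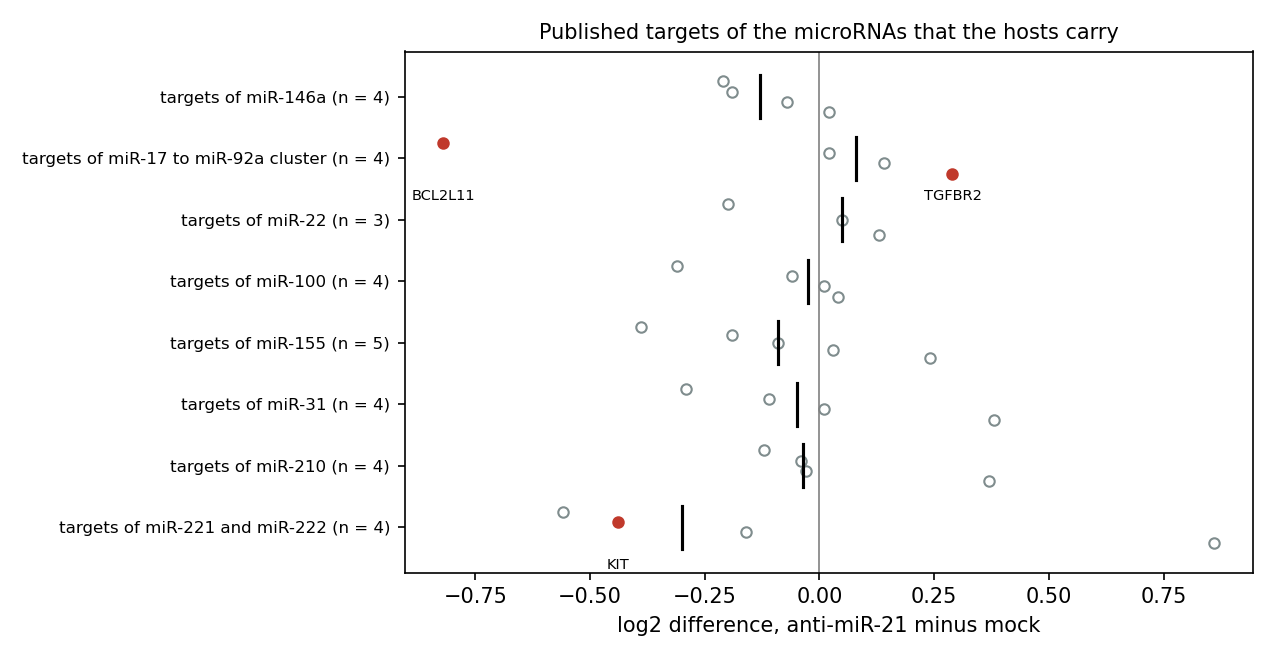
Log2 difference, anti-miR-21 minus mock, of the kept published targets, in a row for each microRNA or cluster; filled red points passed limma's adjusted p of 0.05 and carry the gene's name, open points did not, and the black bar is the median of the row. BCL2L11 at -0.82 and KIT at -0.44 fell, TGFBR2 at 0.29 rose, and each row holds values on both sides of 0.

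The nearest protein-coding gene on either side of each host was looked at to see whether neighbours moved with it. Distance was not limited, so beside here means nearest and need not mean close. Of 16 neighbours 8 were kept and 0 passed in limma, with 2 at an unadjusted p under 0.05 (18.1% of all genes). PTTG1, the securin gene beside MIR146A, differed by -0.16 ± 0.0808 (SE, limma adjusted p = 0.367) against 2.03 for MIR146A. SLITRK5, beside MIR17HG, differed by -0.48, the opposite direction to MIR17HG (limma adjusted p = 0.0824, with 0.0452 to 0.258 over the alternatives, the lowest leaving out mock 2). GPC5, on the other side of MIR17HG, had no kept single-gene probe set. KRABD4, beside MIR222HG, and RASSF7, beside MIR210HG, differed by 0.19 and 0.15 (limma adjusted p = 0.145 and 0.309), RASSF7 by 0.09 when its probe sets were averaged.

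Array-wide facts that touch these results were as follows. Array pairs correlated at 0.99625 to 0.99828 within groups and 0.99387 to 0.99729 between them, across kept probe sets. Among cell type markers, VIM, FN1, COL1A1 and THY1 of the mesenchymal list were kept, as were SERPINA1 and AFP of the hepatocyte list and TEK of the endothelial list. The fifth mesenchymal marker, COL1A2, was below the filter at a mean of 2.51. So were the hepatocyte genes ALB, APOA1 and TTR and the endothelial genes PECAM1, CDH5, VWF and KDR. Of 5 leukocyte markers, 3 had a single-gene probe set and all 3 were below the filter, PTPRC at 3.06 to 3.34. No kept marker passed in limma (adjusted p = 0.359 to 0.888).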

How the data were processed

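RNA from SK-Hep1 cells was hybridised to 6 single-colour arrays, 3 mock and 3 anti-miR-21. The molecule label is total RNA, while the extraction text cites an Argonaute immunoprecipitation procedure, so the fraction read is uncertain. The authors deposited log2 values of 54675 probe sets; the submitters' processing notes name GCRMA, with a version not given in the sources used here. They were used without further normalization, after leaving out 62 control probe sets.

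Gene names came from the platform annotation (41091 with 1 gene, 1801 with several, 11721 unnamed here), with symbols taken through Entrez identifiers from RefSeq GRCh38.p14. Probe sets with a mean of at least 4 were kept, and 2 groups were compared by lmFit and eBayes of limma 3.58.1 under R 4.3.3 (two-sided, Benjamini-Hochberg over the 22408 kept). The number of arrays limits the precision. On simulated data for this comparison over 22408 probe sets, 83 of 100 changes of 1.5-fold and 98 of 100 of 2-fold were recovered, with 8 false calls. The simulated noise was independent between probe sets, with the variances of the fit. It held no effects shared across an array, so recovery in the real data may differ.

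The members and lists were chosen with earlier results of these data known. All member probe sets are described. From each list the 4 genes with the smallest p and every called gene up to 8 are named, with the 5 genes most like MIR146A; NFKB1, RELA, MYC, HIF1A, DDIT4, ITGA5, CARD10, TRAF6, IRAK1 and CDKN1A were added after their values were seen. Alternatives were 2 filters, 2 normalizations, another variance model, averaged probe sets, a replicate block and each array left out.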

Additional observations from a re-analysis of the deposited data

How the results depend on the processing

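The 486 probe sets called in all became 96 to 572 with 1 array left out. With the replicate number as a block 91 were called, as were 2 of the 4 host probe sets, and 0 targets, 0 NF-κB response genes and 0 hypoxia genes. Same-numbered arrays had correlations of deviations from the group mean of -0.361, -0.266 and -0.00187, which gave no sign of pairing. They cannot exclude it, since deviations within a group of 3 are not independent. The host probe sets called ranged from 0 to 3 with 1 array left out, and the MIR146A difference from 1.85 to 2.34; with the filter at 6 MIR146A was not kept.

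With 1 array left out, calls ranged from 0 to 8 among NF-κB response genes, 0 to 4 among protein-coding hosts, 0 to 2 among driving factors and among targets, and 0 to 1 among hypoxia genes, other microRNA transcripts, processing genes and neighbours. Calls among protein-coding hosts were 3 with the filter at 6, 2 with the trend and robust variance or averaged probe sets, and 0 without a filter. Among driving factors 1 was called (RELB) with array medians centred, the filter at 6, quantile normalization or averaging. Among other microRNA transcripts 2 were called with medians centred, the filter at 6 or averaging, and 0 without a filter. With medians centred, 1 target and 0 hypoxia genes were called, and with averaging 2 hypoxia genes. The cause of these changes was not tested. Of the differences recomputed, those near 0 turned their sign. With medians centred IRAK1 and CDKN1A went to -0.02 and HIF1A to 0.00. With 1 array left out IRAK1 ranged from -0.03 to 0.06, CDKN1A from -0.02 to 0.06, HIF1A from -0.01 to 0.07, NFKB1 from -0.02 to 0.04 and RELA from 0.00 to 0.15. The others kept their sign where the alternative gave a value.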

Other observations

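Probe sets that list a microRNA beside another entry, other than the host probe sets above, were counted after the values were seen. Of 240 such probe sets 167 were kept, 3 were higher and 0 lower (limma adjusted p under 0.05, 1.8% against 2.17% of all kept probe sets), with a median difference of 0.017. A probe set that lists MIR23AHG, the host of miR-23a and miR-24-2, with those microRNAs, read 8.87, 8.85 and 9.08 in mock and 9.55, 9.68 and 9.88 with anti-miR-21. The groups did not overlap, and the difference was 0.77 ± 0.101 (SE, limma adjusted p = 0.0189). The other 2 list MIR6516 with the noncoding RNA host SNHG20 (0.67, limma adjusted p = 0.0323) and MIR6756 with the adhesion gene MCAM (0.50, limma adjusted p = 0.0175), and their signal cannot be assigned to the microRNA. The MIR23AHG probe set missed the threshold without anti-miR-21 2, anti-miR-21 3 or mock 2 (limma adjusted p = 0.0801, 0.0635 and 0.0903). The SNHG20 probe set missed it without any single array other than anti-miR-21 1, and the MCAM probe set without any other than anti-miR-21 1 or mock 1.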
